A study of Mus musculus with 12 samples.

Results

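Acetylcholine acts on the vessel wall through receptors of 2 families, and esterases end its action. The 10 genes described here are the nicotinic receptor subunits Chrna7, Chrna1, Chrna2, Chrnb1 and Chrnb2, the muscarinic receptors Chrm2 and Chrm3, the esterases Ache and Bche, and Ric3, a chaperone of nicotinic receptors. They were taken by symbol from a table of 27933 genes, and all 10 had enough reads to be tested. RNA came from thoracic aortas of C57BL/6J mice, freed of fat, frozen and taken at 8 months of age. The 4 groups of 3 libraries were wild type (WT) in room air, WT in nicotine vapor, alpha7-nAChR knockout (KO) in room air and KO in nicotine vapor, with 12 weeks of exposure from 5 months of age. The KO label names the alpha7 nicotinic receptor, which Chrna7 encodes, but not which stretch of that gene is missing.

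Nicotinic receptors are ion channels of subunits arranged in a ring, opened by acetylcholine or nicotine. Chrna7 can form a channel by itself, Chrna1 and Chrnb1 are subunits of the receptor of the neuromuscular junction, and Chrna2 and Chrnb2 are subunits of receptors best known from neurons. Muscarinic receptors signal through G proteins: Chrm3 couples to Gq and is known in vessels for acetylcholine responses of endothelium and smooth muscle, and Chrm2 couples to Gi and is known for slowing the heart. Ache and Bche encode acetylcholinesterase and butyrylcholinesterase, which split acetylcholine, and Ric3 helps alpha7 subunits assemble.

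Libraries are called by their group and label number. They held 10240031 to 12628323 counts, and 17995 to 19484 genes had at least 1 read. Smooth muscle markers were abundant throughout: the 8 on the list summed to between 23563 CPM (counts scaled to library size with TMM factors) in KO nicotine 3 and 47710 CPM in WT air 9. Adipocyte markers summed to between 939 CPM in WT air 9 and 6158 CPM in KO nicotine 4, with all 8 above 0 in each group, although the aortas had been cleaned of fat. The labels do not say that each library is a separate mouse, so p-values measure the spread between libraries, which may be technical. KO libraries carry the numbers 1 to 5 and 7, and WT libraries 6 and 8 to 12. What these numbers stand for is not stated, so any order of handling cannot be told apart from genotype, or in part from exposure. Numbers 8 to 10 are all WT air and 3 to 5 are all KO nicotine.

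The sequences upstream of 2 start sites are shown for the gene named in the knockout label and for the subunit with the highest correlation with smooth muscle markers within groups. Of the 10 genes, 8 have an entry among the RefSeq promoters of GRCm38.p6; Ric3 and Chrna2 do not. Each line is the 250 bases before the start, read 5′ to 3′ on the gene's own strand, for Chrna7 chr7:63212527-63212776 (minus strand) and for Chrna1 chr2:73580339-73580588 (minus strand). Capitals mark the E-box CANNTG, the core bound by basic helix-loop-helix factors, which reads the same on both strands.
Chrna7: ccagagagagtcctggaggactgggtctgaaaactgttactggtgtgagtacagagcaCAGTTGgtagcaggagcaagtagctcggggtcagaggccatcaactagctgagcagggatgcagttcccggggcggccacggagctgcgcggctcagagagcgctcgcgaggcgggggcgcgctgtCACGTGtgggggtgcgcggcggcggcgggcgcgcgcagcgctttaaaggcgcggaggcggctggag
Chrna1: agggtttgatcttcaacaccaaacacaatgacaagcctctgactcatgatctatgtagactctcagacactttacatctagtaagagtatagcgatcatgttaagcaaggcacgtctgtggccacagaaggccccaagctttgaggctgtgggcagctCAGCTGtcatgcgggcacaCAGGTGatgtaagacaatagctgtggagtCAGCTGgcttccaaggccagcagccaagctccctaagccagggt
Chrna7 held 2 E-boxes and Chrna1 held 3, of which 2 were CAGCTG. Of 32851 promoters of this length, 66.2% held at least 1 CANNTG and 31.8% held 2 or more. At least 1 CAGCTG, which is counted among the CANNTG, was held by 13.0%, and 2 or more by 1.26%. A CArG box, the element of serum response factor, occurred in 1.47% of all promoters and in 0 of these 8. These letter matches are a description of the windows only, and the counts themselves were made on another build, mm9.

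The most abundant of the genes, per length, were Bche, Chrnb1 and Ric3. Divided by exon length (GENCODE M21), Bche stood at 7.47 ± 1.67 CPM per kb (SD, n = 12 libraries). Chrnb1 stood at 4.34 ± 0.890 CPM per kb and Ric3 at 3.80 ± 0.772, so these neighbours lay within a SD of each other, and some Chrnb1 libraries reached above the lowest Bche libraries. A wide step followed, since the lowest Ric3 library had 2.96 CPM per kb and the highest Chrna7 library 0.662. Chrna7 (0.428 ± 0.153 CPM per kb), Chrna1 (0.420 ± 0.184), Ache (0.379 ± 0.214), Chrm3 (0.316 ± 0.093), Chrna2 (0.296 ± 0.219), Chrnb2 (0.217 ± 0.094) and Chrm2 (0.093 ± 0.115) came next. From Chrna7 to Chrnb2, neighbours in the order differed by less than their SDs. Chrnb2 and Chrm2 differed by more than the SD of either, though some of their libraries overlapped.

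**Figure D1:**
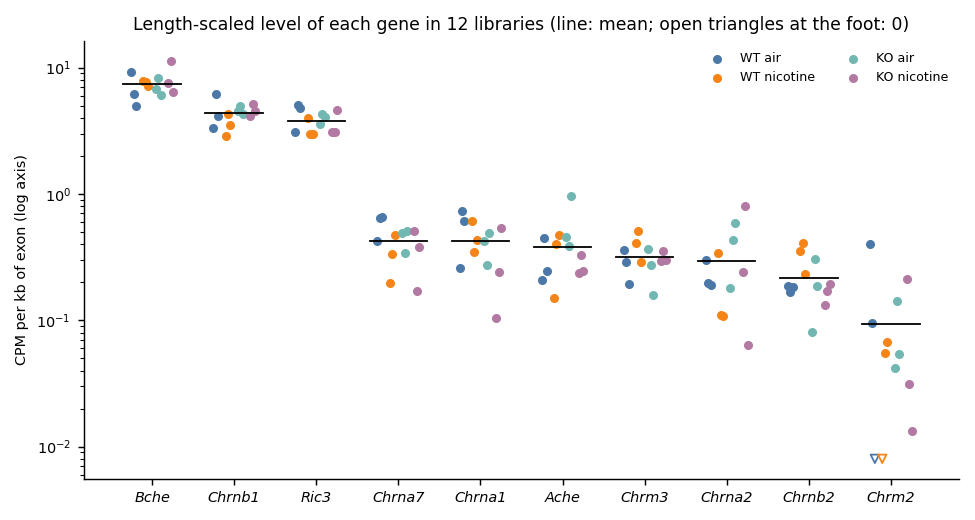
Level per exon length of the 10 cholinergic genes, in CPM per kb on a log axis, with 1 point per library coloured by group and a line at the mean of 12 libraries; open triangles mark the 2 libraries with 0 reads. Bche, Chrnb1 and Ric3 lie between 2.88 and 11.3 CPM per kb, above every value of the other 7 genes.

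In total reads the imbalance was as large. Summed over the 12 libraries, Bche had 6969 reads, Ric3 4565 and Chrnb1 1539. Chrm3 had 274, Chrna7 273, Chrna1 260, Chrnb2 253, Ache 248 and Chrna2 153 reads. Chrm2 had 78 reads, from 10 of the 12 libraries.

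The remaining receptor genes had few reads. None of the other 11 nicotinic subunits passed the filter on low counts, and together they had 101 reads against 2478 for the 5 described here. Chrna4, an alpha subunit known from brain, had 40 reads, of which 12 were in KO nicotine 3. Chrna10 had 17. Chrnd, Chrne and Chrng, which complete the receptor of muscle with Chrna1 and Chrnb1, had 7, 3 and 12 reads. Chrna3, Chrna5 and Chrnb4, the subunits of autonomic ganglia, had 2, 8 and 7. Among muscarinic receptors, Chrm1 had 35 reads (13 of them in WT air 9), Chrm5 had 12 and Chrm4 had 10. Genes of acetylcholine-releasing neurons were at the same floor: Chat, which makes acetylcholine, had 7 reads, Slc18a3, which packs it into vesicles, had 9, and Slc5a7, which takes choline up, had 8. All of these are out of 139961591 reads counted.

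**Figure D2:**
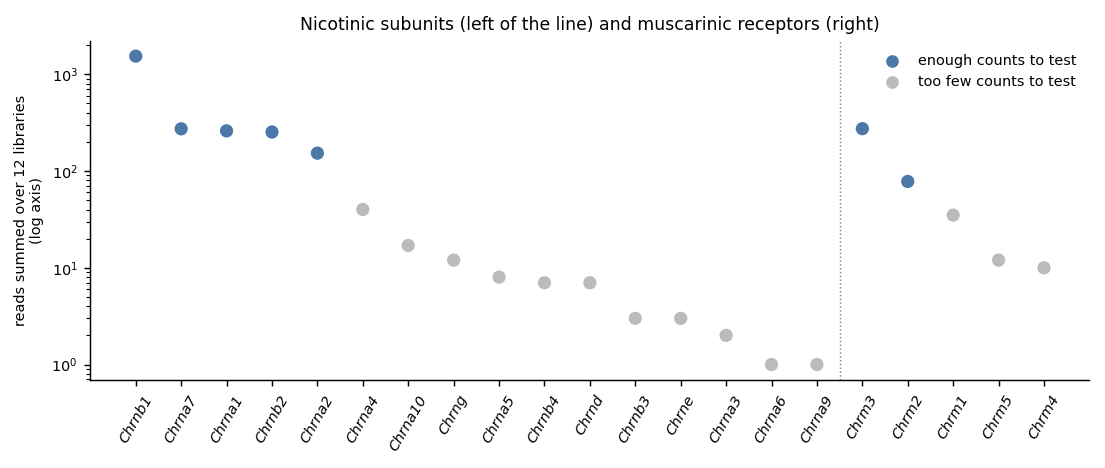
Reads summed over 12 libraries (log axis) for the 16 nicotinic subunits, left of the dotted line, and the 5 muscarinic receptors, right of it; blue points had enough counts to be tested and grey points did not. Chrnb1 stands apart with 1539 reads, and the 11 untested nicotinic subunits have 1 to 40 reads.

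Chrna7 reads were found in every library, and the KO and WT libraries overlapped. In WT air, libraries 8, 9 and 10 had 1.91, 2.88 and 2.98 CPM (22, 35 and 37 reads). In KO air, libraries 1, 2 and 7 had 2.21, 1.54 and 2.31 CPM (26, 18 and 28 reads). In WT nicotine, libraries 6, 11 and 12 had 0.885, 1.51 and 2.12 CPM, and in KO nicotine, libraries 3, 4 and 5 had 2.29, 0.763 and 1.70 CPM. The 4 groups overlapped throughout. KO against WT gave a log2 fold change of -0.36 in air and 0.07 in nicotine, and neither passed the threshold. Reads were counted over the whole gene, so a transcript that lacks only the deleted stretch would still be counted, and these values do not check the label. Nicotine against air gave a log2 fold change of -0.77 ± 0.46 (SE) in WT and -0.35 ± 0.47 in KO, and -0.56 ± 0.33 as the average of both (edgeR quasi-likelihood test, adjusted p = 0.608, 0.911 and 0.541). The 95% interval in WT ran from -1.77 to 0.22. Leaving out 1 library at a time, the difference of Chrna7 lay between -1.09 (without WT nicotine 12) and -0.49 (without WT nicotine 6) in WT, and between -0.69 (without KO nicotine 3) and -0.021 (without KO nicotine 4) in KO. In the authors' deposited table, Chrna7 in WT had a log2 fold change of -0.77 with a standard error of 0.510 and an adjusted p of 0.774.

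**Figure D3:**
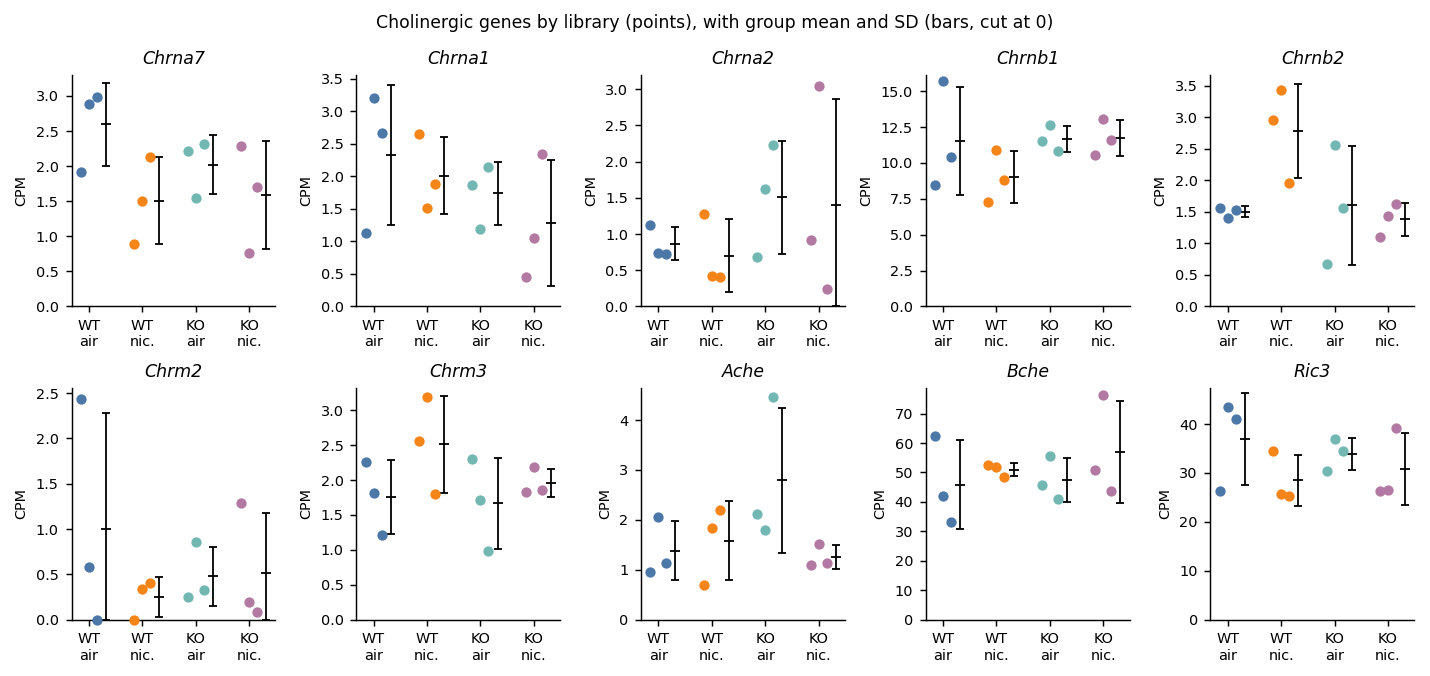
CPM of each cholinergic gene by library (points) in the 4 groups, with the mean and SD of 3 libraries beside them (lower bars end at 0). Chrna7 spans 0.763 to 2.98 CPM with all 4 groups overlapping, and the WT nicotine libraries of Chrnb2 lie above those of WT air and of KO nicotine.

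Among the other nicotinic subunits, Chrnb2 was the one whose groups parted. Chrnb2 had 1.57, 1.40 and 1.53 CPM in WT air (18, 17 and 19 reads) and 2.95, 3.44 and 1.96 CPM in WT nicotine (30, 41 and 24 reads). In KO it had 0.680, 2.56 and 1.57 CPM in air and 1.10, 1.43 and 1.62 CPM in nicotine. Each WT nicotine library thus lay above each WT air and each KO nicotine library, whereas the KO air libraries spanned both. The log2 fold change was 0.89 ± 0.46 for nicotine in WT (edgeR, adjusted p = 0.552), a 1.85-fold difference with a 95% interval of 0.928 to 3.68-fold. For KO against WT in nicotine it was -1.0 ± 0.47, with a 95% interval of -2.0 to 0.002 (adjusted p = 0.600). Nicotine in KO gave -0.21 ± 0.47, and the difference between the 2 nicotine effects was -1.10 ± 0.66 (interaction, adjusted p = 0.999). None of these passed the threshold. In the authors' deposited table, Chrnb2 in WT had a log2 fold change of 0.89, p = 0.0589 and an adjusted p of 0.633.

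Chrnb1, the beta subunit of the muscle receptor, was the most abundant of the subunits. WT libraries had 11.5 ± 3.77 CPM in air against 9.0 ± 1.82 with nicotine, and KO libraries had 11.7 ± 0.922 against 11.7 ± 1.27 (SD, n = 3 each). WT libraries ranged from 7.28 to 15.7 CPM and KO libraries from 10.5 to 13.1. The difference for nicotine was -0.36 ± 0.24 in WT and 0.01 ± 0.23 in KO, on the log2 scale. The WT difference of Chrnb1 stood at -0.066 without WT air 9.

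Chrna1, the alpha subunit of the same receptor, varied more. WT libraries had 1.13, 3.21 and 2.66 CPM in air against 2.66, 1.51 and 1.88 with nicotine. KO libraries had 1.87, 1.20 and 2.15 CPM in air against 0.458, 1.05 and 2.35 with nicotine, so the groups overlapped. The lowest library, KO nicotine 3 (5 reads), was the one with the most skeletal muscle marker RNA: those 12 markers summed to 266 CPM there and to between 47.0 and 96.9 CPM in the other 11 libraries. Log2 differences were -0.22 ± 0.55 for nicotine in WT and -0.42 ± 0.57 in KO. Leaving out 1 library at a time, the difference of Chrna1 lay between -0.52 (without WT air 8) and 0.077 (without WT air 9) in WT, and between -1.19 (without KO nicotine 5) and -0.015 (without KO nicotine 3) in KO. The WT difference of Chrna1 turned to 0.36 with the skeletal muscle score as a covariate and to 0.59 with the adipocyte score.

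Chrna2 was scarce and uneven. WT libraries had 1.13, 0.741 and 0.726 CPM in air against 1.28, 0.419 and 0.408 with nicotine. KO libraries had 0.680, 1.62 and 2.23 CPM in air against 0.916, 3.05 and 0.243 with nicotine. KO against WT gave a log2 fold change of 0.80 ± 0.77 in air and 1.0 ± 0.80 in nicotine. The second of these rested on KO nicotine 4 (32 reads), without which Chrna2 stood at -0.27.

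Of the muscarinic receptors, Chrm3 had 2.26, 1.81 and 1.21 CPM in WT air and 2.56, 3.19 and 1.80 in WT nicotine. In KO it had 2.30, 1.71 and 0.991 CPM in air and 1.83, 2.19 and 1.86 in nicotine. The groups overlapped, with log2 differences of 0.51 ± 0.42 for nicotine in WT and 0.24 ± 0.42 in KO. Its reads spread the least beyond counting error, with a chi-square of 1.89 per degree of freedom within groups.

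Chrm2 was found mainly in single libraries. WT air 8 had 28 of its 78 reads (2.44 CPM) and KO nicotine 3 had 14 (1.28 CPM). WT air 10 and WT nicotine 6 had 0, and the other 8 libraries had 1 to 10. The log2 fold change for nicotine in WT was -1.91 ± 1.28 with all libraries and -0.13 without WT air 8. Cardiac muscle markers were also uneven, but not in the same order. Their highest sum was in KO air 2 (488 CPM), which was among the 8 libraries with 1 to 10 Chrm2 reads. WT air 8 had 207 CPM of them and KO nicotine 3 had 138. Myh6, a myosin heavy chain of heart muscle, reached 144 CPM in library WT air 8 and 397 in KO air 2. It had 6.69 CPM in WT nicotine 6 and 7.42 CPM in WT air 10. The 8 cardiac markers summed to 34.2 to 207 CPM in WT air libraries against 22.1 to 127 with nicotine, and to 28.4 to 488 CPM in KO air libraries against 74.5 to 138 with nicotine. Of these markers, Nppa, Myl7 and Myl2 were at 0 in some libraries. The part of heart muscle RNA in the Chrm2 values was not tested.

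Ache was the only gene of the 10 with an unadjusted p under 0.05. In KO air its libraries 1, 2 and 7 had 2.13, 1.79 and 4.46 CPM (25, 21 and 54 reads), and in KO nicotine libraries 3, 4 and 5 had 1.10, 1.53 and 1.13 CPM (12, 16 and 14 reads). The KO nicotine libraries all lay below the KO air libraries. In WT, Ache had 0.957, 2.06 and 1.13 CPM in air and 0.689, 1.84 and 2.20 in nicotine, with full overlap. The log2 fold change for nicotine in KO was -1.15 ± 0.52 (95% interval -2.28 to -0.02, edgeR adjusted p = 0.878) and -0.64 without KO air 7. For KO against WT in air it was 1.01 ± 0.52 (adjusted p = 0.995) and 0.50 without KO air 7. The interaction for Ache was -1.35 ± 0.74 (adjusted p = 0.999). KO air 7 also had the most mesothelial marker RNA, 93.2 CPM in sum against 76.2 CPM in KO nicotine 3 and 11.2 to 24.2 CPM in the other 10, and its part in the Ache value was not tested. In the authors' deposited table, Ache in KO had a log2 fold change of -1.16, p = 0.0371 and an adjusted p of 0.997.

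Bche, the more abundant esterase, differed little between groups. WT libraries had 45.9 ± 15 CPM in air against 51.0 ± 2.14 with nicotine, and KO libraries had 47.5 ± 7.53 against 56.9 ± 17.3 (SD, n = 3 each). Its lowest library was WT air 10 (33.2 CPM) and its highest KO nicotine 4 (76.5 CPM). Within groups, Bche reads spread 33.2 times as much as counting error (chi-square per degree of freedom). The log2 fold change for nicotine was 0.15 ± 0.24 in WT and 0.26 ± 0.24 in KO. Its 95% intervals reached 0.51 to either side of the estimate, which is 1.43-fold.

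For Ric3, WT libraries had 26.3, 43.5 and 41.1 CPM in air against 34.4, 25.7 and 25.3 with nicotine. KO libraries had 30.4, 36.9 and 34.5 CPM in air against 26.4, 26.6 and 39.3 with nicotine. Groups overlapped in each comparison. The log2 fold change for nicotine was -0.38 ± 0.21 in WT (adjusted p = 0.579), -0.14 ± 0.21 in KO and -0.26 ± 0.15 as the average of both (adjusted p = 0.532, the lowest of the 10 genes over the 7 comparisons). When the adipocyte score entered the fit, the WT difference of Ric3 was -0.089. For the scarce genes the intervals were wide: about 2.0-fold either way for Chrna7 and Chrnb2, 2.22-fold for Ache and 5.94 to 7.54-fold for Chrm2, against 1.37-fold for Ric3.

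**Figure D4:**
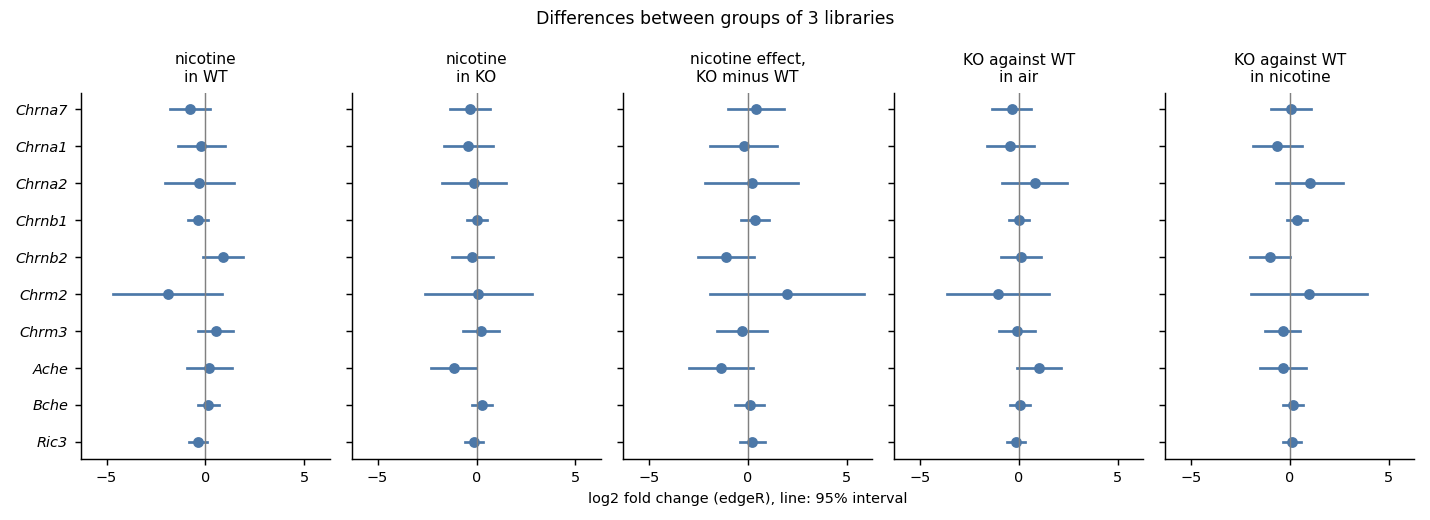
Log2 fold change (edgeR) of the 10 cholinergic genes in 5 comparisons of groups of 3 libraries; points are estimates and lines 95% intervals. The line of Ache for nicotine in KO ends just below 0, at -0.02, and all others cross 0.

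Over all 7 comparisons, 0 of the 10 genes passed an adjusted p of 0.05 in edgeR. DESeq2 and limma voom also called 0. For nicotine in WT, 0.0205% of 14621 tested genes were called, and 0 of the 10 had an unadjusted p under 0.05, against 9.84% of all genes. For nicotine in KO, 0% of all genes were called, and 1 of the 10 (Ache) had an unadjusted p under 0.05, against 4.58%. The interaction called 0% of all genes, and 0 of the 10 were under the unadjusted threshold, against 4.43%. KO against WT called 0% of all genes in air and 0.00684% in nicotine; 0 of the 10 were under the unadjusted threshold in either, against 4.36% and 8.34%. The averages over genotype or exposure called 0% each, with 0 of the 10 under the unadjusted threshold, against 10.9% for nicotine and 8.41% for genotype. The intervals given are not adjusted for the number of genes tested, so they do not mark the smallest difference that could be called. The interval of Ache for nicotine in KO excluded 0, yet Ache was not called. How large a difference would have been called for these 10 genes, at their own depth and spread, was not tested.

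Groups did not overlap in 3 of the 40 values in comparisons of 2 groups, or 7.5%. For nicotine in WT, 1 of the 10 was higher (Chrnb2) and 0 lower, against 7.13% of all genes higher and 6.05% lower. For nicotine in KO, 0 were higher and 1 lower (Ache), against 5.13% and 5.55%. For KO against WT in nicotine, 0 were higher and 1 lower (Chrnb2), against 5.8% and 5.59%. In KO against WT in air 0 of the 10 parted, against 5.75% of all genes higher and 6.06% lower. The median log2 fold change of the 10 genes was -0.27 for nicotine in WT (4 above 0 and 6 below, with a median over all genes of -0.005) and -0.13 in KO (4 above and 6 below, all genes 0.010). For KO against WT it was -0.03 in air and 0.09 in nicotine.

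The genes were also set against markers of the cell types that an aorta sample can hold. In bulk RNA, fewer cells of a type and less RNA per cell cannot be told apart. Each gene's log2 CPM was set against the mean log2 CPM of 16 lists of cell type markers, giving 160 relations with permutation p-values. With Pearson's r, 0 of the 160 passed an adjusted p of 0.05 (lowest 0.111), and with Spearman's rho 1 passed, that of Bche with adipocyte markers.

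Bche was higher in libraries with more adipocyte marker RNA, such as Fabp4 and Pnpla2 (r = 0.82, permutation p = 0.0019, adjusted p = 0.111; rho = 0.92, adjusted p = 0.0144). Without the 2 libraries farthest in adipocyte score, WT air 9 and KO nicotine 4, r was 0.88, and within groups it was 0.81. Against smooth muscle markers such as Myh11 and Acta2, Bche had r = -0.76 (rho = -0.81). When the adipocyte score entered the fit, the log2 fold change of Bche for nicotine in WT was -0.20.

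Chrna7 had the opposite sign, and no relation of it passed the adjusted threshold. Its r with adipocyte markers was -0.78 (rho = -0.82, permutation p = 0.0025, adjusted p = 0.111), -0.62 without the 2 farthest libraries and -0.66 within groups. With smooth muscle markers it had r = 0.69 (rho = 0.73), which was 0.48 without those 2 libraries and 0.49 within groups. Adipocyte markers summed to 939 to 3807 CPM in WT air libraries against 3221 to 3628 with nicotine, and to 1997 to 4061 CPM in KO air libraries against 2238 to 6158 with nicotine. Smooth muscle markers summed to 31674 to 47710 CPM against 28881 to 33215 in WT, and to 32666 to 39553 CPM against 23563 to 38595 in KO. When the adipocyte score entered the fit, the nicotine difference of Chrna7 in WT was -0.27. Over all alternatives other than leaving out libraries, that difference lay between -1.03 and -0.27. The part of tissue makeup in the Chrna7 values was not tested.

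Chrna1 and Ric3 were higher in libraries with more smooth muscle marker RNA, though no relation of theirs passed the adjusted threshold. Chrna1 had r = 0.76 (rho = 0.76, permutation p = 0.0037, adjusted p = 0.111), 0.68 without the 2 farthest libraries and 0.85 within groups. With brown adipocyte markers such as Ucp1 and Cidea it had r = -0.82 (rho = -0.81). Ric3 had r = 0.76 with smooth muscle markers (rho = 0.72, 0.65 without the 2 farthest) and -0.72 with adipocyte markers (rho = -0.59). Chrm2 had r = 0.76 with cardiac muscle markers (rho = 0.75, permutation p = 0.0047, adjusted p = 0.111), 0.70 without KO air 2 and WT nicotine 6, and 0.75 within groups.

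**Figure D5:**
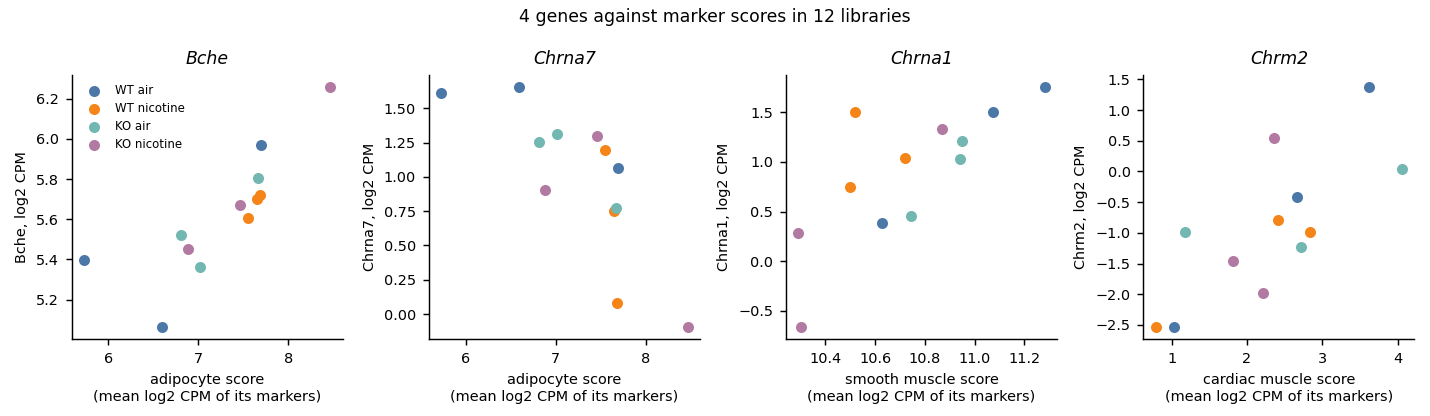
Log2 CPM of Bche and Chrna7 against the adipocyte score, Chrna1 against the smooth muscle score and Chrm2 against the cardiac muscle score (mean log2 CPM of the markers), with 1 point per library coloured by group. Bche climbs (r = 0.82) and Chrna7 declines (r = -0.78) along the same adipocyte axis, with KO nicotine 4 at its right end.

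Other genes of the pathway were followed from 6 lists, of which 33 genes were tested, and 0 of them passed the adjusted threshold in any of the 7 comparisons (lowest adjusted p = 0.261; DESeq2 and limma voom also called 0). Of 15 tested partners of muscarinic signalling, 4 had an unadjusted p under 0.05 for nicotine in WT, against 9.84% of all genes, and 1 in KO (Plcb2, another phospholipase C), against 4.58%. Rgs2, which turns Gq signalling off, had 69.2, 54.4 and 55.7 CPM in WT air and 83.6, 99.4 and 95.3 in WT nicotine. These groups did not overlap, and the log2 fold change was 0.64 ± 0.16 (edgeR adjusted p = 0.261), against 0.20 ± 0.16 in KO (interaction, adjusted p = 0.999). Plcb3, a phospholipase C downstream of Gq, had -0.40 ± 0.13 in WT and -0.25 ± 0.13 in KO. Gnao1, a G protein alpha subunit, had -0.45 ± 0.17 and -0.15 ± 0.17. Rgs5, a regulator of G protein signalling of mural cells that was named after its values were seen, had -0.45 ± 0.20 and 0.09 ± 0.20.

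Of 8 tested genes of acetylcholine synthesis and choline uptake, 0 had an unadjusted p under 0.05 for nicotine in either genotype, against 9.84% of all genes in WT and 4.58% in KO. In that list the choline transporter-like gene Slc44a3 had 0.93 ± 0.49 in WT and 0.62 ± 0.48 in KO, and Chka, a choline kinase, had 0.31 ± 0.22 in WT and, for KO against WT in nicotine, -0.48 ± 0.22 (unadjusted p = 0.0478). Of 4 tested chaperones and modulators, 0 in WT and 2 in KO had an unadjusted p under 0.05 for nicotine, against the same 9.84% and 4.58% of all genes. Those 2 were Tmem35, which like Ric3 helps alpha7 receptors assemble, at -0.71 ± 0.31 in KO, and Lynx1, a membrane-anchored modulator of nicotinic receptors, at -0.31 ± 0.14 in KO and -0.26 ± 0.14 in WT. Of 6 tested esterase anchors and junction organizers, 0 did in either genotype, against the same shares. Agrn, the organizer agrin, had -0.19 ± 0.12 in WT and -0.16 ± 0.12 in KO.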

How the data were processed

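Gene counts of 12 mouse thoracic aorta libraries (RNeasy Plus RNA, SMART-Seq v4 libraries, per the labels' protocols) were used. HTSeq made the authors' deposited counts on mm9, per the submitters' processing notes; they are raw whole numbers. Aligner, annotation and versions: not given in the sources used here. A further 2 deposited tables by the authors, 1 per genotype, hold, per the file headers, log2 fold changes with log2 standard errors, a test score, and unadjusted and adjusted p-values for nicotine against air.

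Of 27933 genes, 14621 passed filterByExpr and were fitted with edgeR 4.0.16 (TMM, robust quasi-likelihood, 4 group means, 8 residual degrees of freedom, Benjamini-Hochberg over all tested genes, threshold 0.05). Each standard error was taken as |log2 fold change| divided by sqrt(F). Log2 CPM used a prior count of 2. Marker relations used 100000 permutations, two-sided. Each gene of the 10 is named. Up to 4 tested genes of each other list were eligible by the lowest unadjusted p for nicotine in WT or KO against WT in air. For each of the 10 genes, the 5 genes of highest r with a mean of at least 5 CPM were listed. The genes and lists were chosen with earlier results of these data known. Alternatives were DESeq2 1.42.0, limma 3.58.1 voom, other scalings, filters, covariates and leaving out libraries. Pairs of libraries within a group differed by a chi-square of 8.79 to 74.8 per degree of freedom, more than counting error. Code was tested on simulated data. R 4.3.3, Python 3.11.15, pandas 2.3.3, scipy 1.17.1 and matplotlib 3.10.9 were used.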

Additional observations from a re-analysis of the deposited data

Results flagged for a closer look

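Plcb2, a phospholipase C isoform known from blood cells, parted in opposite directions in the 2 genotypes. It had 0.783, 1.24 and 1.21 CPM in WT air and 3.05, 1.51 and 1.39 CPM in WT nicotine, so every nicotine value exceeded every air value. In KO it had 2.38, 2.99 and 3.71 CPM in air and 0.733, 1.14 and 1.05 CPM in nicotine, so every nicotine value was under every air value. Counts were 8 to 45 reads per library. The log2 fold change for nicotine was 0.86 ± 0.44 in WT and -1.62 ± 0.44 in KO. The difference between them was -2.49 ± 0.63 (95% interval -3.83 to -1.14, edgeR adjusted p = 0.999), which did not pass the threshold. This pattern, higher with nicotine in WT and lower in KO with no overlap in either, was seen in 22 of 14621 tested genes (0.15%). The reverse pattern was seen in 21 (0.144%). Plcb2 was flagged by a rule that takes parting in either direction, so these shares only describe how often such genes occur. Macrophage markers summed to 276 to 290 CPM in WT air and 429 to 589 in WT nicotine. In KO they summed to 277 to 446 CPM in air and 313 to 591 in nicotine. B cell markers summed to 25.6 to 47.0 CPM in KO air and 13.9 to 23.7 in KO nicotine, with no overlap. T cell markers summed to 9.49 to 14.2 CPM in KO air and 5.26 to 9.44 in KO nicotine, also with no overlap. Neutrophil markers summed to 8.76 to 12.8 CPM in KO air and 4.86 to 13.5 in KO nicotine, which overlapped. In WT, the B cell, T cell and neutrophil sums of air and nicotine libraries overlapped. The part of macrophage, B cell, T cell or neutrophil RNA in the Plcb2 values was not tested.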

How the results depend on the processing

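No gene of the 10 and no gene of the other cholinergic lists was called under any alternative (120 counts over 7 comparisons; lowest adjusted p of the 10 genes 0.202, for Ric3 with nicotine in WT). DESeq2 gave no adjusted p to 5 of 70 values of the 10 genes. Only the compared groups were fitted in 1 alternative, which tested 8 or 9 of the 10 genes. Of 1195 log2 fold changes of the 10 genes under alternatives, 18, in 14 of the 70 values, changed sign by more than a standard error, and none of these 14 was past the threshold. With the adipocyte score as a covariate, Chrna1 for nicotine stood at 0.59 in WT and 0.22 on average, and Bche at -0.20 and -0.072. With the skeletal muscle score, Chrna1 stood at 0.36 and 0.25, and Chrm2 for nicotine in KO at -2.39. With voom, Chrm2 for KO against WT in air stood at 0.28. Leaving out 1 library at a time gave, for nicotine in KO, -0.58 to 0.30 for Chrnb2, -1.77 to 0.79 for Chrm2 and -0.011 to 0.42 for Bche. It gave -1.07 to 0.91 for the Chrna2 interaction. For KO against WT it gave, in air, -0.41 to 0.47 for Chrnb2 and -1.73 to 0.74 for Chrm2, and in nicotine -0.27 to 1.71 for Chrna2, -0.89 to 1.48 for Chrm2, -0.11 to 0.31 for Bche and -0.11 to 0.26 for Ric3. The cause was not tested. No paired analysis was possible because the groups share no library numbers.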

Other observations

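Among genes of at least 5 CPM, those whose log2 CPM was most like each cholinergic gene over the 12 libraries are given with no test. For Chrna7 they were Cpsf7 (r = 0.96), Dph7, Prkar2a, Fermt2 and the smooth muscle gene Cnn1 (r = 0.90). For Chrna1 they were Sparc (r = 0.95), Nedd4, Clip3, Mxra8 and Taf9b. Bche was most like Samm50 (r = 0.97), Timm23, Phlda3, Txn2 and Sox6, and Ric3 was most like Tpp1 (r = 0.95), Ptp4a3, Snhg18, Apbb1 and Myg1. For Ache the first was Tsnax (r = 0.93), for Chrm3 Tmem185b (r = 0.92), for Chrnb1 Cenpo (r = 0.90), for Chrna2 Atat1 (r = 0.88) and for Chrnb2 Mnat1 (r = 0.86). Chrm2 had Col27a1 (r = 0.86) and Myl4 (r = 0.86), a cardiac marker of the list used above. All of these share libraries and depth, and 10467 or 10468 genes were searched for each.

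Within the 10 genes, the lowest correlation over the 12 libraries was that of Chrna7 with Bche (r = -0.76, and -0.74 within groups). Chrna1 with Ric3 had the highest (r = 0.68, and 0.79 within groups). Chrna1 with Chrm2 had r = -0.63, and -0.80 within groups, the lowest within groups of these pairs. Bche with Ric3 had r = -0.63, and -0.59 within groups.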
